A study of Mus musculus with 6 samples.

Results

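Adipocyte genes were examined as a set of 7: Adipoq, Lep, Retn, Cfd, Plin1, Cidec and Car3. They were chosen by name as genes known from fat cells, and all 7 were found among the 14798 genes listed. The scars came from the left ventricle of mice, taken 6 weeks after an infarct made by tying off the LAD coronary artery in mice aged 10 weeks, and the labels give donors of 14 to 16 weeks. Control scars (3 libraries) carried the Sox9 fl/fl alleles and no Cre. Deletion scars (3 libraries) carried floxed Sox9 and Per-Cre (Sox9 fl/perCre), which the series description says removes Sox9 in fibroblasts, so other cells of the scar keep the gene. The series title names fibrosis and inflammation after infarction as the question. Whether each library is a different animal is not stated, so p-values measure only the spread among libraries, which may be technical.

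White adipocytes hold triglyceride in a single large droplet whose coat includes perilipin 1 and CIDEC, and they secrete hormones such as adiponectin and leptin. On the heart, fat lies mainly on the outer surface and in the pericardium. In whole tissue, more adipocytes in a sample and more of each RNA per adipocyte cannot be told apart. Many genes of lipid handling are shared: cardiomyocytes, endothelium and macrophages also take up, store or bind fatty acids.

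Total counts ran from 18538171 to 55523974 per library. Replicate 1 of both groups stood apart from the others. All counts of replicates 2 and 3 were even numbers, whereas 49.95% and 49.26% of genes had an even count in control and deletion replicate 1. The ribosomal precursor Rn45s was at 12180 and 22480 CPM (counts scaled to a common library size with TMM factors) in these 2 libraries and at 623 to 1004 CPM in the other 4. The labels name no batch; replicate 1 against replicates 2 and 3 is treated as one below. Totals of replicates 2 and 3 may be doubled, which was not tested. Control replicate 3 was the 1 library with high Xist (812 CPM) and low Ddx3y (0.596 CPM). This is the pattern of female tissue, and no deletion library had it, so sex was not balanced between the groups. Sox9, the targeted gene, was at 71.1, 75.8 and 67.7 CPM in controls and at 42.1, 51.7 and 55.8 CPM in deletion scars. The heart muscle gene Myh6 was at 14020 to 53110 CPM, so every library held heart muscle RNA.

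All 7 adipocyte genes were highest in the same library, control replicate 1. Their summed level was 166 CPM there, 8.41 and 8.31 CPM in control replicates 2 and 3, and 1.37, 4.76 and 0.926 CPM in deletion replicates 1, 2 and 3. As counts, these sums were 2985, 460 and 502 in controls and 26, 218 and 46 in deletion scars. The deletion libraries lay below the controls in this sum, but the gap among controls was far larger than that between control replicates 2 and 3 and the deletion libraries. Among deletion scars, replicate 2 held the highest level of each of the 7 genes, while the order of replicates 1 and 3 differed between genes.

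**Figure D1:**
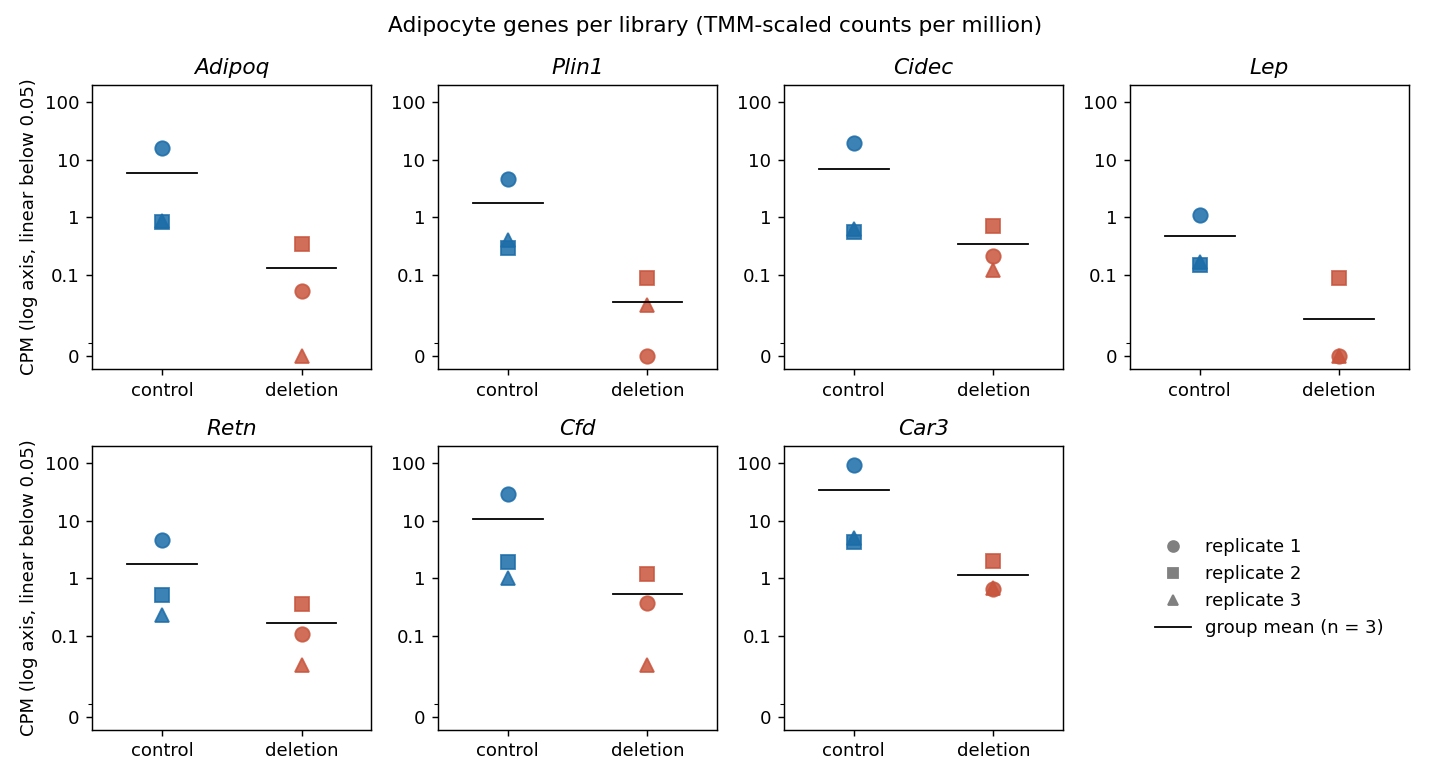
Level of each adipocyte gene in each library, in TMM-scaled CPM on a log axis that turns linear below 0.05, by group; symbols mark replicate numbers and black lines the group means (n = 3). Control replicate 1 is the highest point in all 7 panels, from 1.11 CPM for Lep to 91.4 CPM for Car3, and the lowest points of 3 genes are at 0.

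The Lep promoter is a known target of C/EBP alpha in fat cells, and the windows around the start sites of the set were searched for short motifs. RefSeq windows (GRCm38.p6, 250 bases before to 50 after the start, on the strand of the gene) were matched for 6 of the 7 genes by symbol, with 7 windows because Cidec has another start. The motif TTGCNNAA, one form of a C/EBP site, was found on either strand in windows of 3 of the 6 genes (Plin1, Cidec and Lep), against 10.8% of 32851 windows of 300 bases. The Cidec match lay in the window of a start other than that of the transcript listed in the table. A gene with more windows has more chances of a match, so shares of genes and of windows are unlike measures. TATAAA, and AGGTCA, bound by nuclear receptors, were found in 0 of 6, against 13.6% and 16.3% of windows. CANNTG was found in all 6 and in 72.3% of windows. A match describes these letters and not a bound site. The 250 bases before the start are shown for Lep (chr6:29059971-29060220, plus strand) and Plin1 (chr7:79732777-79733026, minus strand), because their matches lie in the window of the listed transcript. Capitals mark TTGCNNAA; the Lep match reads the same on both strands and overlaps a CANNTG at each end.
Lep: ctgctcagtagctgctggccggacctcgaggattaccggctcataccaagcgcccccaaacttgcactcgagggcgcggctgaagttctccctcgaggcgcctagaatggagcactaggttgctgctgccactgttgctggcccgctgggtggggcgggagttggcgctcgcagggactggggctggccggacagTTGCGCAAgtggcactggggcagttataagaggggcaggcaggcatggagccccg
Plin1: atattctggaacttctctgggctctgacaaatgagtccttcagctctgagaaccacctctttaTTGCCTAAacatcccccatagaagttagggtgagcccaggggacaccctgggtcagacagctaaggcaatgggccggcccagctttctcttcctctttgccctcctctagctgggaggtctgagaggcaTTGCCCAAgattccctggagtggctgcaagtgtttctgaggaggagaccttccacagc
The first matching base lay 55 bases before the start in Lep, and 187 and 58 bases before it in Plin1.

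Among the secreted products, adiponectin (Adipoq), a hormone made almost solely by adipocytes, was counted 292, 46 and 52 times in control replicates 1 to 3 and 1, 16 and 0 times in deletion replicates 1 to 3. This was 16.3, 0.841 and 0.861 CPM against 0.0528, 0.350 and 0 CPM. The groups did not overlap, and control replicate 1 was 18.9-fold above the next highest library. A count of 0 in deletion replicate 3 allows up to 0.0604 CPM (3 counts, counting error alone), and more if its counts were doubled. Adipoq lies on chromosome 16 from 23146536 to 23157968 (mm10, RefSeq transcript with 3 exons). Its control mean of 5.98 ± 8.89 CPM stood against a deletion mean of 0.134 ± 0.189 CPM (SD, n = 3 each).

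Leptin (Lep), the hormone that reports fat stores to the hypothalamus, had the lowest counts of the set. It was counted 20, 8 and 10 times in controls and 0, 4 and 0 times in deletion scars, or 1.11, 0.146 and 0.166 CPM against 0, 0.0874 and 0 CPM. The groups did not overlap, but zeros in deletion replicates 1 and 3 allow up to 0.158 and 0.0604 CPM, so deletion replicate 1 cannot be placed below control replicate 2 at this depth. Lep (chromosome 6 from 29060221 to 29073876, 3 exons) was the 1 gene of the 7 that did not pass the filter on low counts.

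Resistin (Retn), an adipocyte hormone in mice, was at 4.62, 0.512 and 0.232 CPM in controls against 0.106, 0.350 and 0.0403 CPM in deletion scars, from 83, 28 and 14 against 2, 16 and 2 counts. Deletion replicate 2 lay above control replicate 3, so the groups overlapped. Complement factor D (Cfd, adipsin), the protease that starts the alternative complement pathway by cleaving factor B, was at 28.8, 1.90 and 0.994 CPM against 0.370, 1.18 and 0.0403 CPM, from 518, 104 and 60 against 7, 54 and 2 counts. Here too deletion replicate 2 exceeded control replicate 3. Retn lies on chromosome 8 from 3655770 to 3659818 (5 exons) and Cfd on chromosome 10 from 79890853 to 79892655 (5 exons).

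Of the lipid droplet proteins, perilipin 1 (Plin1), which guards the droplet against lipases, was counted 83, 16 and 24 times in controls and 0, 4 and 2 times in deletion scars. Its levels were 4.62, 0.293 and 0.397 CPM against 0, 0.0874 and 0.0403 CPM, and the groups did not overlap. Plin1 lies on chromosome 7 from 79721164 to 79732776 (9 exons, minus strand). CIDEC (Cidec), which fuses droplets into one, was at 19.3, 0.548 and 0.629 CPM in controls against 0.211, 0.699 and 0.121 CPM in deletion scars, from 346, 30 and 38 against 4, 32 and 6 counts. Deletion replicate 2 was above control replicates 2 and 3, so control replicate 1 alone lay outside the range of the deletion scars. Cidec lies on chromosome 6 from 113424634 to 113435760 (6 exons, minus strand).

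Carbonic anhydrase 3 (Car3), a cytosolic enzyme abundant in adipocytes and in slow skeletal muscle, was the most abundant of the 7 in every library. It was at 91.4, 4.17 and 5.03 CPM in controls against 0.633, 2.01 and 0.684 CPM in deletion scars, from 1643, 228 and 304 against 12, 92 and 34 counts. The groups did not overlap. Car3 lies on chromosome 3 from 14863538 to 14872373 (7 exons). No exonic base of the 7 genes is shared with another gene of GENCODE vM21, on either strand.

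Per kilobase of transcript, the order of levels in control replicate 1 was Car3 (60.2 CPM per kilobase), Cfd (31.6), Adipoq (13.2), Cidec (11.2), Retn (8.03), Plin1 (2.42) and Lep (0.342). Car3 and Cfd led, and Plin1 and Lep closed, the order in control replicates 2 and 3 as well. In control replicate 2, Retn (0.890 CPM per kilobase) stood above Adipoq (0.685) and Cidec (0.320), and in control replicate 3 Adipoq (0.702) stood above Retn (0.403) and Cidec (0.368). Among those 3 neighbours Adipoq stood above Cidec in each control, and the place of Retn was not fixed. Relative to control replicate 1, the level of the 7 genes was 2.85% to 14.9% in control replicates 2 and 3 and 0% to 7.85% in the deletion scars.

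The comparison of deletion with control scars gave a lower level of each of the 6 genes tested, and none passed the threshold. edgeR's quasi-likelihood test over 14771 genes called 0 genes at an adjusted p below 0.05 (0% of genes), and 0 of these 6. Log2 fold changes (deletion minus control, ± SE) were -4.95 ± 1.61 for Adipoq, -4.80 ± 1.41 for Car3, -4.16 ± 1.22 for Plin1, -4.15 ± 1.58 for Cfd, -4.06 ± 1.57 for Cidec and -3.01 ± 1.24 for Retn. All 6 shared an adjusted p of 0.564 in edgeR. The median of the 6 was -4.16 against -0.02 for all genes tested, and they held places 2, 3, 7, 8, 9 and 11 from the most negative log2 fold change of all 14771. At an unadjusted p below 0.05 all 6 were lower, with p from 0.0124 to 0.0477, against 3.04% of genes tested. Since a gene with so few counts passes the filter through the controls, these counts add no support. Without the filter, Lep had a log2 fold change of -2.55 ± 1.05 (edgeR adjusted p = 0.563).

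The size of these differences rested on control replicate 1, which held between 52.6% (Lep) and 83.6% (Cidec) of the control counts of each gene although its library was the smallest. Without it the log2 fold changes were -2.27 ± 1.09 for Adipoq, -2.07 ± 0.69 for Plin1, -1.99 ± 0.57 for Car3, -1.36 ± 1.08 for Cfd, -0.96 ± 0.85 for Retn and -0.68 ± 0.76 for Cidec. The median was then -1.67, none passed (edgeR adjusted p from 0.482 to 0.673), and 2 genes, Plin1 and Car3, had an unadjusted p below 0.05 (0.0269 and 0.0153), against 2.97% of genes lower at that threshold. In 4 of the 7 genes (Adipoq, Plin1, Lep and Car3) every measured control level lay above every deletion level, with or without control replicate 1; for Lep this rests on zeros that the depth of deletion replicate 1 does not place below control replicate 2. Over all genes tested, 8.6% had controls higher without overlap, and 18.9% without control replicate 1.

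Within the batches the direction was the same and the size was not. The replicate 1 pair alone, which has no test, differed by -7.33 for Adipoq, -7.07 for Car3, -6.59 for Plin1, -6.22 for Cidec, -6.11 for Cfd, -4.92 for Retn and -4.58 for Lep on the log2 scale. Replicates 2 and 3 alone gave -2.10 ± 1.16 for Adipoq, -1.93 ± 0.64 for Plin1, -1.76 ± 0.54 for Car3, -1.22 ± 1.28 for Cfd, -0.84 ± 0.92 for Retn and -0.51 ± 0.79 for Cidec, with edgeR adjusted p from 0.245 to 0.791. With the batch as a term the 6 genes ranged from -3.41 (Adipoq) to -1.95 (Retn), with edgeR adjusted p from 0.120 to 0.400. That fit called 1 gene of 14771 (0.00677%), which was not among them.

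**Figure D2:**
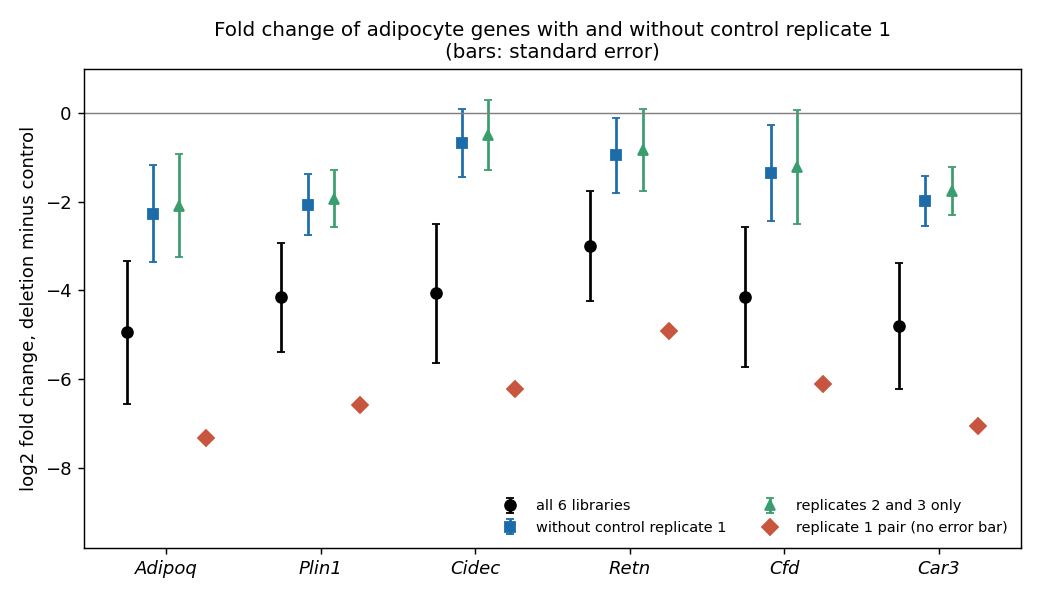
Log2 fold change, deletion minus control, of the 6 adipocyte genes tested, from all 6 libraries, without control replicate 1, from replicates 2 and 3 alone and from the replicate 1 pair; bars are standard errors and the pair has none. All points lie below 0, from -0.51 for Cidec in replicates 2 and 3 to -7.33 for Adipoq in the replicate 1 pair.

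DESeq2, run beside edgeR, gave no p for 4 of the 6 genes (Adipoq, Cidec, Cfd and Car3) because it marked a count outlier, and the library with the largest Cook's distance was control replicate 1 for all 6. Over all genes tested it withheld p for 0.257%. It called Plin1 (log2 fold change -5.21 ± 1.36, DESeq2 adjusted p = 0.0406) among 51 genes (0.346%), and Retn was at an adjusted p of 0.248. The authors' deposited table gives log2 fold changes of -3.75 for Adipoq, -3.72 for Plin1, -3.68 for Car3, -2.65 for Cfd, -2.53 for Cidec, -2.37 for Lep and -2.15 for Retn. The NOISeqBIO probability in the authors' deposited table was at least 0.99939 for the 7 genes and at least 0.95 for 79% of the genes it lists.

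Control replicate 1 stood out in a short list of genes. Over the 14798 genes listed, 17 (0.115%) were at least 5-fold higher there than in each of the other 5 libraries, and these included all 7 adipocyte genes. The threshold and the other 10 genes were chosen after their values were seen. They were Pck1, Cyp2e1, Adrb3, Acvr1c, Cpn1, Angptl4, Gm13749, Adamts16, Sprr1a and Mir214. Pck1, the enzyme that feeds glycerol synthesis in fat, was at 15.7 CPM there and at most 0.110 CPM elsewhere. Adrb3, the beta-adrenergic receptor of fat cells, was at 1.84 CPM against at most 0.106 CPM, and Acvr1c, the activin-type receptor ALK7 of adipocytes, at 2.73 CPM against at most 0.282 CPM. Angptl4, an inhibitor of lipoprotein lipase, was at 41.0 CPM against 4.31 to 7.62 CPM. The same rule gave 43 genes in deletion replicate 1, 14 in control replicate 3 and between 0 and 6 in the other 3 libraries.

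**Figure D3:**
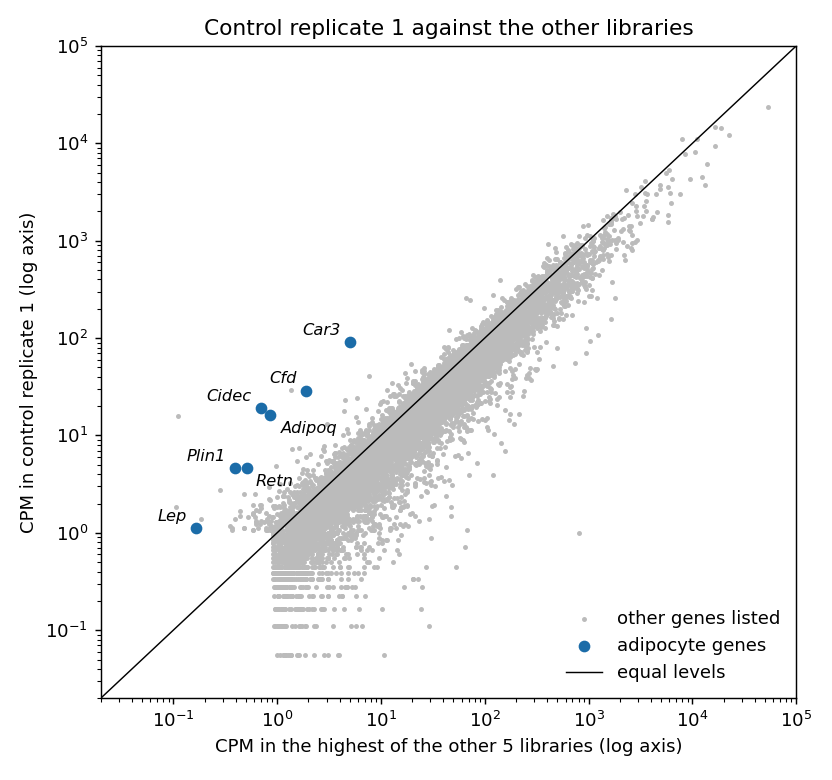
Level of each listed gene in control replicate 1 (vertical, CPM, log axis) against its highest level in the other 5 libraries (horizontal, CPM, log axis); the line marks equal levels and genes at 0 on an axis are not drawn. The 7 adipocyte genes, in blue, lie above the line by 6.72-fold (Lep) to 27.5-fold (Cidec).

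Genes with the most similar pattern were ranked by Pearson correlation with the standardised mean of the 7 genes over the 6 libraries, among 13287 genes of at least 1 CPM, as a description. The 10 highest, from 0.9988 to 0.9746, were Sap30bp, Ywhab, Rbmxl1, Lrrc32, Rnaseh1, H2afy2, Snx4, Cyp2e1, Anapc10 and Rpp25l. Such values rest largely on control replicate 1 and ignore size. Sap30bp, the closest, ranged between 21.1 and 28.4 CPM. Cyp2e1, a cytochrome P450 of liver and fat, was the 1 gene of the 10 with a fold change as large as those of the adipocyte genes, with 29.2, 1.35 and 0.927 CPM in controls against 0.528, 0.743 and 0.242 CPM in deletion scars (log2 fold change -4.24 ± 1.45, edgeR adjusted p = 0.564).

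Related gene lists held both genes that were highest in control replicate 1 and genes that were not. edgeR's quasi-likelihood test of all 6 libraries called 0 genes of the lists below. The fit with the batch term called 1, the skeletal muscle gene Myot, which was higher in deletion scars. Of 12 adipogenic transcription factors tested, 6 had negative and 6 positive log2 fold changes, with a median of 0.03. Their summed level was 297 CPM in control replicate 1 and 354 to 411 CPM elsewhere. Pparg, the master regulator of adipogenesis, was at 10.8, 5.81 and 6.46 CPM in controls against 18.1, 7.87 and 6.20 CPM in deletion scars, highest in deletion replicate 1. Cebpa, the gene of C/EBP alpha, went the other way, at 8.459, 12.98 and 15.86 against 5.278, 9.747 and 8.371 CPM. Its groups overlapped (log2 fold change -0.668 ± 0.315, edgeR adjusted p = 0.564), and control replicate 1 was its lowest control. The 2 most abundant factors were Cebpd (34.6, 91.1 and 139 against 49.6, 73.5 and 72.7 CPM) and Ebf1 (75.7, 73.6 and 50.9 against 53.3, 72.6 and 71.2 CPM). Both overlapped between groups, and Cebpd was lowest in control replicate 1. Pparg, like other genes of these lists that are not among the 2 most abundant, was named after its values were seen.

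Of 12 fatty acid uptake and transport genes, 9 were highest in deletion replicate 1, the library with the highest cardiomyocyte gene sum, and 3 in control replicate 1. These 3 were Pck1 and Angptl4, described above, and the glycerol phosphate dehydrogenase gene Gpd1 (90.0, 34.5 and 37.8 against 81.4, 56.0 and 44.2 CPM). Of 11 tested, 10 had positive log2 fold changes (median 0.68), and Angptl4 alone a negative one (-1.66 ± 0.80, edgeR adjusted p = 0.565). Pck1 is missing from this tally because it did not pass the filter on low counts. Its mean was lower after deletion (0.06433 CPM, control mean 5.301 CPM), a gap that rested on control replicate 1. Lipoprotein lipase (Lpl) was at 1953, 1087 and 1175 CPM in controls against 4526, 2014 and 1776 CPM in deletion scars, and the fatty acid translocase Cd36 at 1420, 592 and 595 against 2453, 1101 and 1036 CPM. The fatty acid binding protein gene Fabp4, shared by adipocytes, endothelium and macrophages, was at 603, 233 and 261 against 897, 453 and 290 CPM. In these 3 genes control replicate 1 was the highest control but lay below deletion replicate 1. Cardiomyocyte genes summed to 85170, 53510 and 57030 CPM in controls and to 166400, 87390 and 81210 CPM in deletion scars. Their part in these lists was not tested.

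Other lipid droplet proteins had a median of 0.41 over 12 genes, 9 of them positive. The caveolar coat gene Ptrf (Cavin1) was at 423, 390 and 322 against 354, 343 and 324 CPM, and caveolin 1 (Cav1) at 186, 183 and 153 against 322, 180 and 159 CPM. Perilipin 5 (Plin5), the perilipin of oxidative muscle, was at 28.1, 5.78 and 10.0 CPM in controls against 90.5, 25.9 and 19.5 CPM in deletion scars. Triglyceride synthesis genes split 7 to 7 (median -0.11), led by Me1 (199, 137 and 117 against 219, 168 and 164 CPM) and Lpin1 (119, 75.2 and 71.7 against 294, 128 and 138 CPM). Dgat2, which makes triglyceride, was at 15.1, 7.79 and 8.61 CPM in controls against 105, 30.2 and 22.3 CPM in deletion scars without overlap (log2 fold change 2.33 ± 0.64, edgeR adjusted p = 0.564).

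Lipolysis genes had a median of 0.38, with 7 of 9 positive. Adrb3, described above, belongs to this list but did not pass the filter on low counts. Its mean was also lower after deletion (0.06433 CPM, control mean 0.6696 CPM), again through control replicate 1. The triglyceride lipase gene Pnpla2 was at 240, 125 and 157 against 333, 199 and 179 CPM and Mgll at 89.3, 73.9 and 61.1 against 133, 79.6 and 77.8 CPM. Of the brown and beige fat genes, 5 of 8 tested were positive (median 0.41), and the 2 most abundant, Cox7a1 and Cox8b, are subunits of cytochrome oxidase that heart muscle also makes. Cox7a1 was at 90.4, 51.0 and 55.7 against 391, 143 and 111 CPM and Cox8b at 79.9, 43.8 and 48.0 against 260 (deletion replicate 1), 97.9 and 80.2 CPM. Ucp1, Elovl3 and Zic1 were not among the genes tested. In the lists of lipolysis and brown fat genes the highest score was again that of deletion replicate 1, where the 7 adipocyte genes summed to 1.37 CPM.

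**Figure D4:**
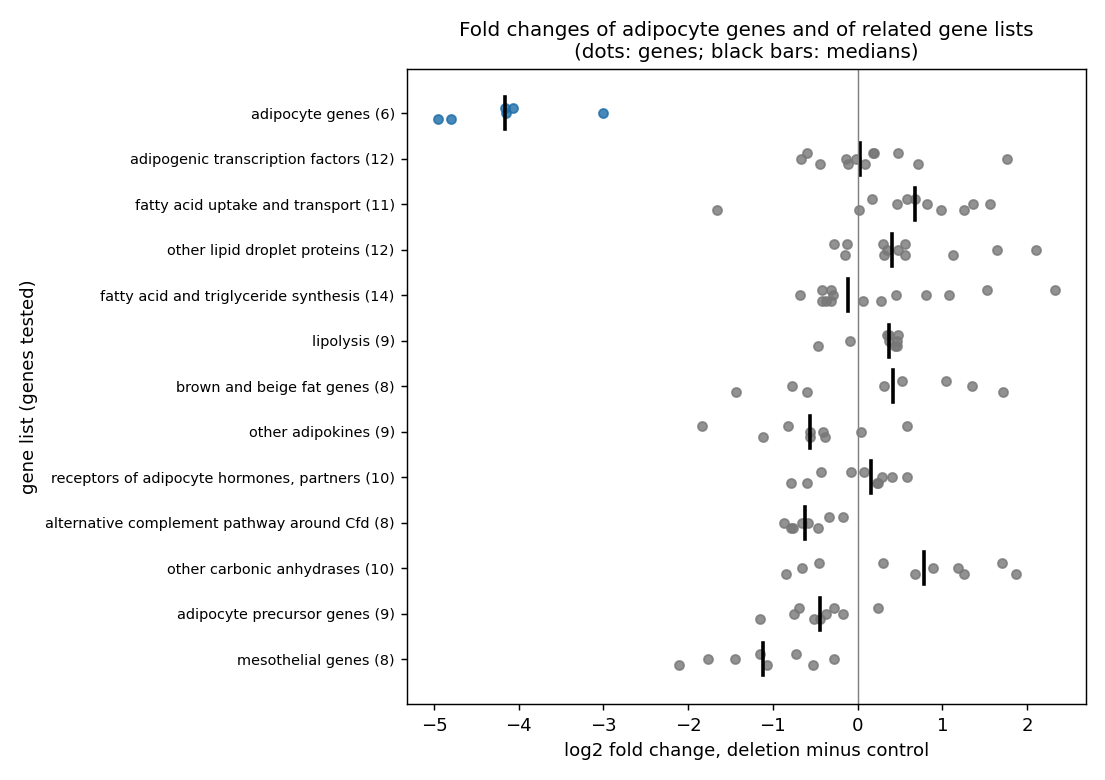
Log2 fold change, deletion minus control, of each gene tested in the adipocyte set (blue) and in related lists (grey); black bars are medians and the number of genes tested is in parentheses. The adipocyte genes tested lie between -4.95 and -3.01, below every gene tested of the other 12 lists drawn, whose lowest value is -2.10. The skeletal muscle list, which is not drawn, reaches -2.68. Genes that did not pass the filter on low counts have no point. Among them are Lep and, of the related lists, Pck1 and Adrb3, whose mean levels were also lower in deletion scars.

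The receptors of the hormones had levels of their own. Adiponectin receptors Adipor1 and Adipor2 were at 152, 117 and 120 against 201, 132 and 125 CPM and at 110, 94.0 and 89.8 against 152, 108 and 98.8 CPM. The leptin receptor Lepr was at 4.51, 14.9 and 8.54 CPM in controls against 4.12, 5.55 and 6.56 CPM in deletion scars. T-cadherin (Cdh13), which binds adiponectin on vessels, was at 190, 207 and 206 against 232, 245 and 232 CPM, and the insulin receptor (Insr) at 124, 135 and 129 against 199.6, 146 and 167 CPM. In both the groups did not overlap and deletion scars were higher, which 8.87% of all genes tested also showed. The list of 10 had a median of 0.15.

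Partners of Cfd in the alternative complement pathway had negative log2 fold changes in 8 of 8 genes, with a median of -0.62, against 52.4% negative over all genes tested. This was not particular to the pathway. Fibroblast genes were negative in 12 of 12 (median -0.48) and macrophage genes in 8 of 8 (median -0.53), while cardiomyocyte genes were positive in 12 of 12. C3, the central component, was at 2999, 2369 and 2804 CPM in controls against 927, 1588 and 2286 CPM in deletion scars. Factor B (Cfb), the substrate of Cfd, was at 55.0, 45.7 and 64.0 against 19.4, 36.8 and 38.8 CPM without overlap (log2 fold change -0.79 ± 0.28, edgeR adjusted p = 0.564). Control replicate 1 was not set apart in these genes. Their lowest library was deletion replicate 1, as it was for fibroblast genes, which summed to 7766 CPM there and to 15890 to 19640 CPM elsewhere.

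Other adipokines had negative log2 fold changes in 7 of 9 genes (median -0.56). Their mean log2 level was highest in control replicate 1, where it stood 0.76 above the mean of the 6 libraries, and 4 of the 9 genes were highest there, against 17.6% of all genes listed. Among these were the neuronatin gene Nnat (7.35, 0.804 and 1.36 against 1.64, 0.437 and 0.523 CPM) and the lipocalin gene Lcn2 (15.5, 3.91 and 2.68 against 3.06, 3.41 and 5.76 CPM). Apoe, also made by macrophages, was highest in control replicate 2, at 992, 1599 and 1546 CPM in controls against 614, 1116 and 1066 CPM in deletion scars. Other carbonic anhydrases had positive log2 fold changes in 7 of 10 genes (median 0.78). Car14 was at 23.7, 10.1 and 18.7 against 131, 32.8 and 27.5 CPM and Car8 at 16.0, 3.55 and 4.01 against 32.0, 8.87 and 11.9 CPM. Adipocyte precursor genes, which scar fibroblasts share, were negative in 8 of 9 (median -0.44), led by Fn1 (1360, 1419 and 1356 against 262, 634 and 959 CPM) and Pi16 (395, 517 and 352 against 279.5, 392 and 447 CPM).

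Markers of other tissues were read beside these values. Mesothelial genes, which mark the layer covering the heart, summed to 188, 117 and 32.8 CPM in controls against 21.2, 30.4 and 95.3 CPM in deletion scars, and 8 of 8 had negative log2 fold changes (median -1.12) with overlapping groups. Tbx18 was at 29.8, 27.9 and 18.2 against 11.5, 18.7 and 22.5 CPM. Upk3b was at 51.1, 35.8 and 3.44 CPM in controls against 0.739, 1.62 and 23.6 CPM in deletion scars. Control replicate 1 was the highest library in 8 of 8 mesothelial genes, against 17.6% of all genes listed. The 2 sets parted elsewhere: deletion replicate 3 had the lowest adipocyte sum (0.926 CPM) and the third highest mesothelial sum, and control replicates 2 and 3 had near equal adipocyte sums. The part of the outer layer in the adipocyte result was not tested.

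Skeletal muscle genes were read beside Car3, which slow skeletal muscle also makes. The list is mostly of fast muscle genes and holds no gene particular to slow fibres, so it does not measure slow muscle. Of 12 genes, 8 were highest in control replicate 1, against 17.6% of all genes listed. Negative log2 fold changes were found in 8 and positive ones in 4 (median -0.73), against 52.4% negative over all genes tested. At an unadjusted edgeR p below 0.05, 3 were lower, against 3.04% of genes tested, and 1 was higher. In 4 genes every control was above every deletion library, against 8.6% of genes tested. The reverse held in 1 gene. The mean log2 level of the list was 1.14 above the mean of the 6 libraries in control replicate 1 and 0.86 above it in deletion replicate 1. Fast muscle genes picked with their values known were Myh2 (16.5, 16.3 and 3.15 against 1.90, 1.71 and 1.89 CPM), Tnnt3 (13.6, 5.96 and 4.27 against 3.80, 2.05 and 3.78 CPM) and Tnnc2 (6.07, 0.951 and 0.530 against 1.90, 0.306 and 0.161 CPM). These 3 had lower means after deletion and do not stand for the list. Its 4 positive log2 fold changes reached 2.54, and Myot was called higher in the fit with the batch term. The summed level was 1202, 289 and 343 CPM in controls against 4551, 804 and 663 CPM in deletion scars, mostly from Ckm (833, 163 and 220 against 2537, 564 and 410 CPM) and Acta1 (256, 75.0 and 89.9 against 1807, 201 and 212 CPM), which heart muscle also makes. The part of skeletal muscle in the Car3 result was not tested.

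The other cell types were spread differently over the libraries. Cardiomyocyte genes Myh6 and Myh7 were at 23330, 14020 and 14940 against 53110, 21120 and 22200 CPM and at 14440, 12240 and 11690 against 19000, 16090 and 12390 CPM. Fibroblast genes Col3a1 and Dcn were at 3738, 3898 and 4914 against 1502, 4285 and 3046 CPM and at 3020, 3654 and 2825 against 1713, 2926 and 3047 CPM. Endothelial sums were 705 to 832 CPM in controls and 697 to 1373 CPM in deletion scars, with Cdh5 at 190, 180 and 176 against 359, 187 and 166 CPM and Pecam1 at 162, 191 and 163 against 232, 148 and 156 CPM. Macrophage sums were 979 to 2186 against 631 to 1280 CPM, with Lyz2 at 495, 785 and 1351 against 331, 719 and 793 CPM and Mrc1 at 177, 184 and 146 against 95.1, 145 and 122 CPM.

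Blood cell markers did not single out control replicate 1 either. Erythrocyte genes summed to 1567 to 3525 CPM in controls and were highest in deletion replicate 2. The near-identical globin genes Hba-a1 and Hba-a2 were both highest in deletion replicate 2, at 4118 and 4093 CPM, and their reads may be split between them. Lymphocyte genes summed to 8.96, 13.8 and 87.8 against 7.02, 54.0 and 32.8 CPM, with Cd4 highest in control replicate 3 (42.3 CPM) and Cd79a in deletion replicate 2 (19.8 CPM).

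**Figure D5:**
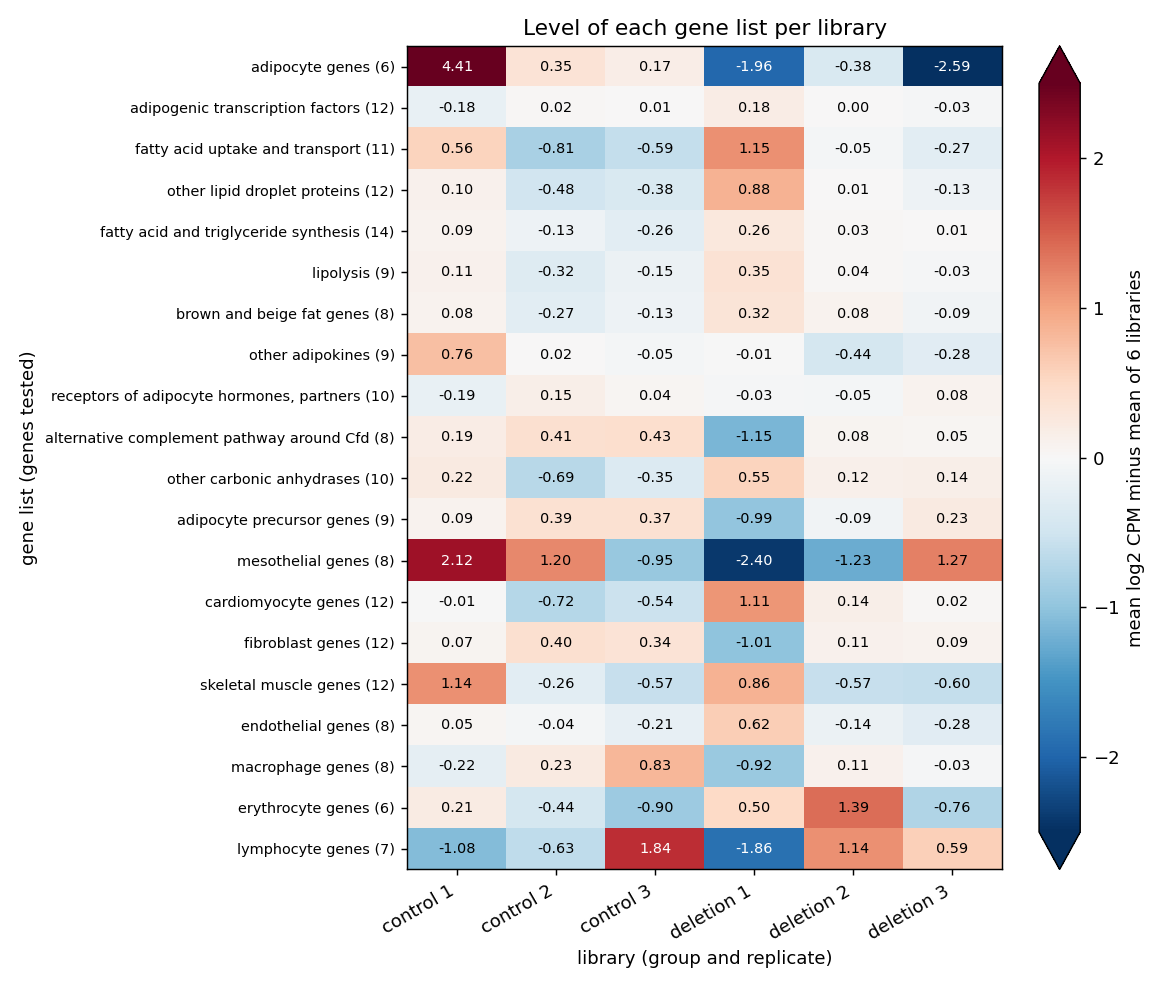
Mean log2 CPM of each gene list in each library, minus its mean over the 6 libraries; numbers in the cells give the values, the number of genes tested is in parentheses, and colours saturate at 2.5 in either direction. The adipocyte genes reach 4.41 in control replicate 1 and -2.59 in deletion replicate 3, while the transcription factors stay between -0.18 and 0.18.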

How the data were processed

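RNA of 6 infarct scars was sequenced; per the labels' protocols, the RNeasy mini kit was used and 100 ng of RNA entered each ScriptSeq v2 library. The labels call the molecule total RNA and the series design names polyA sequencing. The submitters' processing notes list Trim Galore, STAR, deepTools and mm10. How reads were counted, and whether by strand, is not given in the sources used here. In the deposit, the authors' table gives raw counts and a transcript length for each gene, none with a mean count under 7. It also holds signal values that the authors name TMM, per the file headers, which are no linear scaling of the counts, a log2 fold change of their group means in the authors' deposited table, and a NOISeqBIO probability by the authors, which is a score between 0 and 1.

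Counts were tested in R 4.3.3 with edgeR 4.0.16 (quasi-likelihood F test, robust fit, prior count of 2, TMM factors, low genes removed with filterByExpr), genotype being the only term, with Benjamini-Hochberg adjustment over all genes tested and a threshold of 0.05. The test was tried on simulated counts first, with the same spread for every gene and no outlying library. It called 100% of genes changed by -2 or 2 on the log2 scale. It called 52% and 62% of those changed by -1 and 1, with 8 false calls. These rates do not carry over to the adipocyte genes, which had an outlying library. SEs are the log2 fold change divided by the root of F. Alternatives included DESeq2 1.42.0. The smallest p of an exact permutation test of 3 libraries against 3 is 0.1, above the threshold. Depth sets the precision: 1 count is 0.0166 to 0.0557 CPM. Steps were coarser than 1 count in replicates 2 and 3, whose counts were all even.

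The genes and lists were chosen with earlier results of these data known. Named were the 7 genes, Sox9, the 2 most abundant tested genes of each list and the 10 genes of most similar pattern; others are said to be chosen after their values were seen. For 2 lists, 1 of these 2 genes is not reported here.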

Additional observations from a re-analysis of the deposited data

How the results depend on the processing

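Across 17 alternatives, every log2 fold change of the 6 tested genes that could be computed stayed negative. edgeR called 0 of them in each of its fits; DESeq2 called 1, Plin1, whose adjusted p ranged from 0.0406 to 0.908 over all fits. Over all genes, DESeq2 called 51 and the batch term 1, against 0 in edgeR's fit of all libraries, where 449 genes were lower at an unadjusted p below 0.05. The median of the adipocyte genes, -4.16, was -1.67 without control replicate 1, -1.49 in replicates 2 and 3 alone and -6.40 in the replicate 1 pair. Leaving out 1 library at a time gave medians from -5.29 to -1.67, 0 genes called and 0 of the adipocyte genes called. With the replicate number as a block the median was -3.13 and 0 genes were called (lowest adjusted p of the 6 genes 0.224); deviations of same-numbered libraries correlated at 0.482, 0.013 and 0.180, and control replicate 2 correlated best with deletion replicate 3, so the numbers were not taken as pairs. A filter of 10 counts in every library left Car3 alone, and halving the even counts left 4 genes. A smaller prior count, chosen after seeing the data, gave a median of -4.56. Plain library totals moved the median of all genes from -0.02 to -0.15, far less than these differences. Counts of at most 92 in the deletion libraries limit the size of each fold change.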
